A study of Mus musculus with 18 samples.

Results

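The comparison described here asks how the effect of a Chst7 knockdown changed between day 1 and day 3 of induced cardiac reprogramming. It is the siRNA by day interaction, the siChst7 minus siControl difference at day 3 less the same difference at day 1, over all 24514 genes of the count table and 12 of the 18 libraries of the series. All cells came from 1 line, iMGT-Myh6-eGFP mouse embryonic fibroblasts, which carry Mef2c, Gata4 and Tbx5 under doxycycline control together with a green fluorescent reporter driven by Myh6, a cardiac myosin gene. The day after transfection with an siRNA, the cells received doxycycline at 1 µg/mL, and this was called day 0. The 4 groups are siControl with 1 day of doxycycline, siChst7 with 1 day, siControl with 3 days and siChst7 with 3 days, each with 3 libraries, and every library pools 40 wells. All 4 groups carry the same factors and received doxycycline, so the time since transfection, the time of induction and the time in culture cannot be told apart. A change in a bulk library can come from fewer cells of a type or from less RNA per cell, which these data cannot separate.

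Chst7 is a Golgi enzyme that moves sulfate onto the sugars of chondroitin chains, the glycosaminoglycans carried by proteoglycans of the cell surface and matrix. Sulfated chains bind growth factors, chemokines and matrix proteins. Mef2c, Gata4 and Tbx5 drive fibroblasts toward a state with genes of the heart muscle sarcomere and calcium store, while fibroblast, inflammatory and matrix programmes are known to oppose that switch.

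An effect that was more positive at day 3 than at day 1 is said here to have shifted upward, and one that was more negative to have shifted downward. Values are log2 differences with a standard error (± SE), and a gene was called where the quasi-likelihood F-test of edgeR gave an adjusted p below 0.05. The counts of the 12 libraries summed to 30590742 to 44807490 per library. Replicate 1 of siChst7 at day 3 had 1.96% of its counts on Rn45s, the ribosomal RNA precursor, against 0.249% to 0.654% in the other 11. Replicate 2 of the same group stood apart in the other direction for short genes, as given with the ribosomal protein genes. Nothing in the labels says how the biological replicates were separated beyond the pooled wells, and p-values measure the spread between these libraries.

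The effect of siChst7 changed between the days in a broad set of genes. Of 13802 genes tested, the interaction was called in 3926 (28.4%), with 2112 (15.3%) shifted upward and 1814 (13.1%) shifted downward, and 5370 had an unadjusted p below 0.05. Which direction held the larger share depended on the scaling: 53.8% of the called genes shifted upward here, 44.8% with DESeq2-style size factors and 45.1% without siChst7 replicate 3 at day 3. The shift was at least 2-fold in 213 genes upward and 39 downward. Fewer genes were called against siControl at day 1, 2426 (17.6%), of which 1223 (8.86%) were higher and 1203 (8.72%) lower. At day 3 the number was 6165 (44.7%), with 3182 (23.1%) higher and 2983 (21.6%) lower. Across the tested genes the effects at the 2 days had a rank correlation of 0.27, a description over genes that are not independent. The median effect of all tested genes was 0.01 at day 1, 0.01 at day 3 and 0.01 in the interaction. With a gene length trend removed from each library, 16.6% of the tested genes shifted upward and 10.6% downward. Without siChst7 replicate 2 at day 3, 2939 of 14017 tested genes shifted upward and 2641 downward. List counts given below for either fit are to be read beside these values.

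Most of the called genes had an effect that was called at day 3 and not at day 1. These were 2726 of the 3926 (69.4%), while 533 (13.6%) were called at day 1 and not at day 3. In 234 genes both effects were called with opposite signs, and 169 of these were raised at day 1 and lowered at day 3 while 65 went from lowered to raised. A further 117 kept their sign and were larger at day 3, 96 kept their sign and were smaller, and 220 were called at neither day. The 3 differences of the siChst7 libraries at day 3 did not overlap those at day 1 in 6787 tested genes (49.2%), and in 3849 of the called genes. In 307 called genes the passage from day 1 to day 3 itself went opposite ways, with 225 that fell in siControl and rose in siChst7 and 82 that rose in siControl and fell in siChst7.

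**Figure D1:**
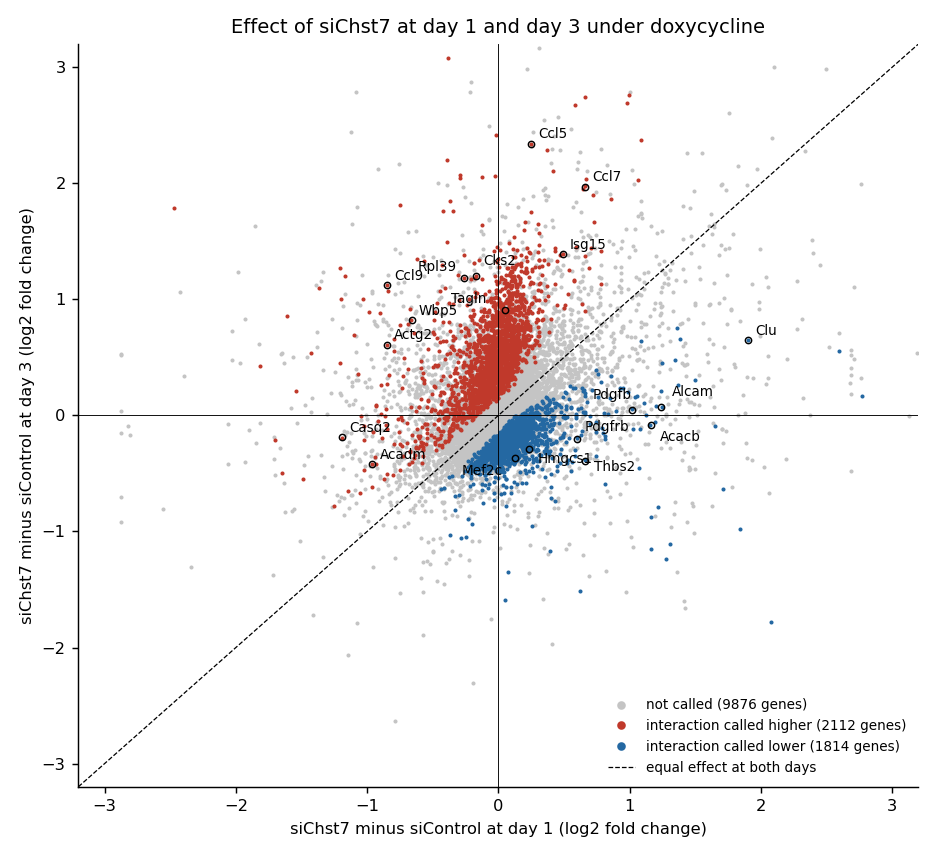
Each point is 1 of 13802 tested genes, with the log2 fold change of siChst7 against siControl at day 1 on the x axis and at day 3 on the y axis. Red points shifted upward and blue points downward by the interaction test, the dashed line marks equal effects, circles mark named genes, and 43 genes lie outside the range of 3.2 on either side. The red points stretch along the y axis, where the day 1 effect is near 0, and Alcam, Acacb and Pdgfb lie far out on the x axis near 0 at day 3.

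Chst7 itself (chromosome X, 20058963 to 20099991, GRCm38) was low in all 6 siChst7 libraries and less so at day 3. At day 1 it had 40.4, 37.2 and 35.3 CPM (counts scaled to the library total) in siControl and 0.95, 0.581 and 0.733 CPM in siChst7. By day 3 siControl had 25.6, 23.8 and 25.9 CPM and siChst7 2.96, 1.87 and 1.64 CPM. The groups did not overlap at either day, and every day 3 value in siChst7 lay above every day 1 value. The difference went from -5.65 ± 0.17 to -3.54 ± 0.14, an interaction of 2.10 ± 0.26 (edgeR adjusted p = 1.58e-05).

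The 3 reprogramming factors, whose counts sum the delivered and the cells' own copies, each shifted downward. Mef2c (chromosome 13, 83504017 to 83667079), a muscle transcription factor, had 531, 524 and 514 CPM in siControl and 560, 587 and 565 CPM in siChst7 at day 1. At day 3 it had 326, 321 and 320 CPM in siControl and 250, 266 and 231 CPM in siChst7. So siChst7 libraries lay above all controls at day 1 and under all controls at day 3, with an interaction of -0.50 ± 0.07 (edgeR adjusted p = 3.44e-05). Gata4 (chromosome 14, 63198914 to 63271712) went from 791, 757 and 753 CPM with siChst7 at day 1 to 355, 375 and 326 CPM at day 3, and from 745, 717 and 696 CPM to 463, 448 and 440 CPM in siControl. Tbx5 (chromosome 5, 119796514 to 119885220) went from 1300, 1320 and 1310 CPM to 588, 621 and 565 CPM with siChst7, and from 1250, 1200 and 1210 CPM to 745, 740 and 746 CPM without it. All 3 factors fell with time in both conditions, and fell further with siChst7. Their interactions were -0.45 ± 0.07 for Gata4 (edgeR adjusted p = 0.000166) and -0.43 ± 0.07 for Tbx5 (edgeR adjusted p = 0.000123). The day 1 differences, 0.13, 0.09 and 0.10 in the order Mef2c, Gata4 and Tbx5, were not called, and the day 3 differences of -0.37, -0.36 and -0.33 were.

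**Figure D2:**
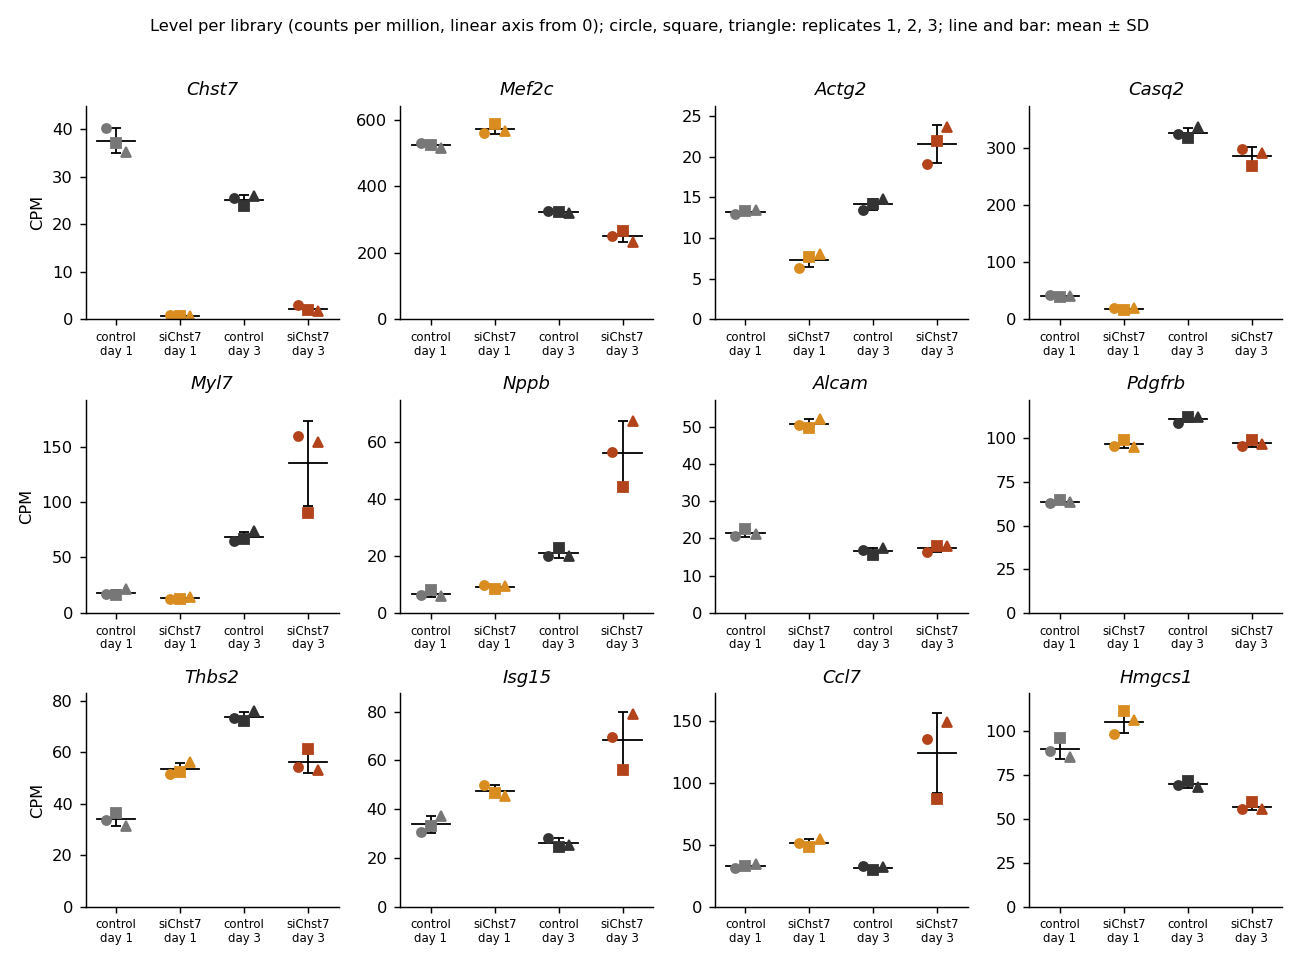
Level of 12 genes in each library, in CPM on linear axes from 0, with circles, squares and triangles for replicates 1, 2 and 3 and the mean ± SD of 3 libraries as line and bar. Actg2 lies below its controls at day 1 and above them at day 3, Alcam is raised at day 1 alone, and replicate 2 is the lowest siChst7 library at day 3 for Myl7, Nppb, Isg15 and Ccl7.

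Among the genes with the largest upward shifts were a smooth muscle actin, an atrial myosin chain, interferon-induced genes and short housekeeping transcripts. Actg2 (chromosome 6, 83512909 to 83536251), a gamma actin of smooth muscle, had 13.0, 13.3 and 13.4 CPM in siControl against 6.36, 7.68 and 7.98 CPM in siChst7 at day 1. Actg2 at day 3 had 13.4, 14.2 and 14.8 CPM against 19.1, 21.9 and 23.7 CPM. The siControl level stayed flat between the days while siChst7 crossed from below to above it. The difference moved from -0.85 to 0.61, an interaction of 1.46 ± 0.14 (edgeR adjusted p = 1.82e-06). Wbp5 made the same crossing, from -0.66 to 0.82 (interaction 1.49 ± 0.14, edgeR adjusted p = 1.07e-06), with 118, 124 and 122 CPM in siChst7 at day 1 and 433, 299 and 472 CPM at day 3, while siControl stayed between 190 and 231 CPM. Ifitm3, an interferon-induced membrane protein that blocks virus entry, and Ifi27l2a shifted upward by 1.42 ± 0.20 and 1.41 ± 0.29 (edgeR adjusted p = 5.43e-05 and 0.00139). With length corrected for, these shifts were 0.96 and 1.1. Snhg3, a host transcript of a small nucleolar RNA, and the ribosomal protein gene Rpl39 shifted upward by 1.46 ± 0.21 and 1.45 ± 0.16, which became 0.87 and 0.85 with length corrected for. Ces1g, a carboxylesterase gene, was raised at day 1 and more so at day 3, from 0.72 to 1.90.

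The genes with the largest downward shifts were mostly raised by siChst7 at day 1 and near their controls at day 3. Alcam (chromosome 16, 52248996 to 52453081), an adhesion molecule of the immunoglobulin family, had 20.6, 22.6 and 21.2 CPM in siControl and 50.5, 49.8 and 52.2 CPM in siChst7 at day 1. Alcam at day 3 had 16.9, 15.6 and 17.4 CPM against 16.3, 18.0 and 17.9 CPM, and the groups overlapped. Its difference went from 1.24 to 0.07, an interaction of -1.18 ± 0.09 (edgeR adjusted p = 9.56e-08). Acacb, the mitochondria-associated acetyl-CoA carboxylase that limits fatty acid oxidation, went from 1.16 to -0.08 (-1.24 ± 0.15), and Pdgfb, a platelet-derived growth factor, from 1.02 to 0.05 (-0.96 ± 0.11). Their edgeR adjusted p-values were 1.58e-05 and 7.76e-06. Clu, which encodes the extracellular chaperone clusterin, had 7.39, 6.28 and 5.99 CPM with siChst7 at day 1 against 1.45, 1.52 and 2.27 CPM. At day 3 siChst7 had 11.9, 7.38 and 9.60 CPM against 6.15, 6.30 and 5.88 CPM in siControl. Clu stayed raised at both days, from 1.90 to 0.65, and its interaction of -1.25 ± 0.24 arose as the siControl level climbed (edgeR adjusted p = 0.000638). Adamtsl2 (-1.19 ± 0.32) and the kinase-like gene Trib2 (-1.02 ± 0.14) also shifted downward. Wif1, a secreted Wnt inhibitor with under 1.3 CPM in every day 1 library, shifted by -1.00 ± 0.37 (edgeR adjusted p = 0.0457), and stayed called in 4 of the 12 fits that left out 1 library.

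Of the genes of the heart muscle apparatus a minority shifted, beside 15.3% upward and 13.1% downward over all tested genes. Of 18 thin filament and troponin genes 3 shifted upward and 0 downward, of 12 striated myosin genes 2 and 0, of 26 genes of the Z-disc, titin and M-band 2 and 7, and of 19 calcium handling genes 2 and 2. Their medians were 0.41, 0.58, -0.08 and 0.13. The thin filament count was 5 up and 2 down without replicate 2 of siChst7 at day 3. It was 1 up without siControl replicate 2 or siChst7 replicate 2 at day 1, or siChst7 replicate 3 at day 3. For the upward Z-disc count these values were 4 without siChst7 replicate 2 at day 3 and 1 without replicate 3 of siChst7 at either day, siControl replicate 2 at day 1 or siControl replicate 3 at day 3.

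Myl7, the atrial light chain of myosin, rose from day 1 to day 3 in both conditions and further with siChst7. It had 17.2, 16.2 and 21.2 CPM in siControl and 12.6, 12.8 and 13.9 CPM in siChst7 at day 1. Myl7 at day 3 had 65.2, 66.8 and 73.8 CPM against 160, 90.4 and 154 CPM. The siChst7 libraries lay under the controls at day 1 and above them at day 3, with replicate 2 nearest to the controls. The interaction was 1.44 ± 0.22 (edgeR adjusted p = 0.000122), or 0.94 with length corrected for. Myl4, another atrial light chain, went from 14.9, 12.6 and 11.2 CPM in siControl against 8.05, 5.72 and 8.09 CPM in siChst7 to 246, 236 and 266 CPM against 353, 254 and 347 CPM. At day 3 its groups overlapped through siChst7 replicate 2. Its difference went from -0.83 to 0.35, an interaction of 1.18 ± 0.17 (edgeR adjusted p = 7.29e-05), or 0.88 with length corrected for.

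Casq2 (chromosome 3, 102086415 to 102146514), the calcium-binding protein of the cardiac sarcoplasmic reticulum, was held back by siChst7 at day 1 and almost level at day 3. It had 42.6, 38.3 and 39.9 CPM in siControl and 19.0, 15.3 and 18.8 CPM in siChst7 at day 1. By day 3 it had reached 324, 318 and 336 CPM against 298, 268 and 290 CPM. The groups were apart at both days, by -1.19 and then by -0.19, and the interaction was 1.00 ± 0.10 (edgeR adjusted p = 2.15e-06). Jph2, which joins the plasma membrane to the calcium store, went from -0.48 to 0.24 (0.73 ± 0.11, edgeR adjusted p = 0.000107). Srl, a sarcoplasmic reticulum protein gene, shifted downward by 0.59 ± 0.14 as an early rise of 0.59 came to 0.00.

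At the Z-disc the small heat shock protein Hspb7 had 38.7, 34.1 and 31.9 CPM with siChst7 against 18.4, 16.7 and 17.8 CPM at day 1, and 11.0, 8.86 and 10.6 CPM against 8.61, 8.61 and 9.18 CPM at day 3. Its raised level at day 1 was gone as a called difference at day 3, and the interaction was -0.79 ± 0.14 (edgeR adjusted p = 0.00044). Flnc, the muscle filamin, shifted downward (-0.30 ± 0.07) and the actin-binding Nexn upward (0.35 ± 0.08). Ankrd1, a stretch-responsive gene and the most abundant member not called, was raised at both days, by 0.36 and 0.52.

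Of 12 cardiac transcription and secreted factor genes 3 shifted upward and 1 downward. Nppb, the B-type natriuretic peptide, had 6.32, 7.96 and 6.05 CPM against 9.63, 8.30 and 9.48 CPM at day 1, and 20.0, 22.6 and 19.9 CPM against 56.5, 44.3 and 67.2 CPM at day 3. Every siChst7 library lay above every control of its day, and the difference grew from 0.43 to 1.42 (0.99 ± 0.18, edgeR adjusted p = 0.000573, and 0.63 with length corrected for). Nppa, the atrial natriuretic peptide, named after its values were seen, shifted by 1.01 ± 0.30 (edgeR adjusted p = 0.016). The transcription factor Tbx2 shifted upward by 0.55 ± 0.12, and Gata6 downward (-0.34 ± 0.10), a call lost with the replicate block and the length correction together (-0.27). Among 15 muscle energy genes 2 shifted upward and 2 downward, near the 15.3% and 13.1% of all tested genes. The upward count was 1 without replicate 2 of siControl or siChst7 at day 1 or siChst7 replicate 3 at day 3. The enolase Eno3 moved from -0.62 to -0.12 and the coactivator Ppargc1a from 0.48 to -0.29. Troponin C, Tnnc1, shifted upward by 0.52 ± 0.17 (edgeR adjusted p = 0.0264), but this call held in 5 of the 12 fits without 1 library and was lost when gene length was corrected for (0.10).

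Part of the contractile genes of myofibroblasts and smooth muscle shifted upward. Of 18 myofibroblast contractile genes 8 shifted upward and 1 downward, with a median of 0.22 (0.01 over all tested genes), and with length corrected for the counts were 10 and 1. All tested genes had 15.3% upward and 13.1% downward, or 16.6% and 10.6% with length corrected for. At day 1 siChst7 had lowered 6 of the 18 and raised 0, beside 8.72% and 8.86% of all tested genes. The downward one in the interaction was Des, the muscle filament desmin, named after its values were seen. The downward count was 3 without siChst7 replicate 2 at day 3. Of the 10 tested smooth muscle markers, all of whose 7 called members are on that list too, 6 shifted upward and 1 downward. Acta2, the smooth muscle actin of activated fibroblasts, had 2080, 2010 and 1990 CPM in siControl and 1480, 1500 and 1580 CPM in siChst7 at day 1. At day 3 it had 2800, 2750 and 2850 CPM against 3160, 2890 and 3570 CPM. It crossed from below all controls to above all of them, from -0.41 to 0.20, with an interaction of 0.61 ± 0.08 (edgeR adjusted p = 5.32e-05). Tagln, an actin-bundling protein, had 170, 172 and 162 CPM against 176, 170 and 175 CPM at day 1 and 255, 244 and 248 CPM against 446, 431 and 523 CPM at day 3. Its difference grew from 0.05 to 0.91 (0.86 ± 0.08, edgeR adjusted p = 1.29e-06), while Flna, the most abundant member not called, stayed at -0.06 and -0.01.

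Fibroblast surface and transcription factor genes went both ways, 6 upward and 5 downward of 26, beside 15.3% and 13.1% of all tested genes. Pdgfrb, the receptor for the platelet-derived growth factor of Pdgfb, had 63.1, 64.9 and 63.4 CPM in siControl and 95.7, 99.1 and 95.3 CPM in siChst7 at day 1. Its day 3 levels were 109, 112 and 112 CPM against 95.6, 99.0 and 96.6 CPM. Its siChst7 level was the same at both days while siControl climbed past it, so the difference turned from 0.60 to -0.20 (-0.80 ± 0.06, edgeR adjusted p = 2.39e-08). The fibroblast calcium-binding gene S100a4 shifted upward by 0.96 ± 0.15, or 0.40 with length corrected for, and the transcription factor Zeb2 downward (-0.32 ± 0.06). Vim, the filament gene vimentin, was lowered at both days, by 0.32 and 0.21, and was not called in the interaction.

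Matrix gene lists held both directions, beside 13.1% downward and 15.3% upward over all tested genes. Of 21 collagen genes 9 shifted downward and 4 upward (median -0.17), of 29 matrix glycoprotein and crosslinker genes 10 and 3 (median -0.21), and of 24 matrix protease and inhibitor genes 6 and 1 (median -0.17). With length corrected for, the same counts were 5 and 5, 9 and 4, and 8 and 3. The negative collagen median belonged to the listed genes. Taken by symbol after the values were seen, 35 tested Col genes held 9 downward and 6 upward shifts, with a median of 0.14. These were 5 downward and 9 upward with length corrected for, with a median of 0.25. The protease list had 2 upward without siChst7 replicate 2 at day 3, replicate 3 of siControl at either day, or siChst7 replicate 3 at day 1. At day 1 siChst7 had raised 9 of the 21 listed collagen genes and lowered 0, beside 8.86% and 8.72% of all tested genes.

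Thbs2, a matricellular thrombospondin, had 33.8, 36.4 and 31.5 CPM in siControl and 51.7, 52.4 and 56.3 CPM in siChst7 at day 1. Thbs2 at day 3 had 73.1, 72.2 and 75.9 CPM against 54.4, 61.3 and 53.1 CPM. The siChst7 level hardly moved while siControl more than caught up, and the difference turned from 0.66 to -0.39 (-1.04 ± 0.08, edgeR adjusted p = 9.56e-08). Sparc, a collagen-binding glycoprotein, had 1190, 1170 and 1160 CPM against 1280, 1270 and 1280 CPM at day 1 and 2450, 2340 and 2520 CPM against 1750, 1920 and 1780 CPM at day 3 (-0.54 ± 0.06, edgeR adjusted p = 3.31e-06). Both genes rose less with time under siChst7 than in siControl. Serpine2, a protease inhibitor, came from 0.66 at day 1 to 0.02 (-0.64 ± 0.06), Col1a2 from 0.52 to 0.06 (-0.46 ± 0.07), and the gelatinase Mmp2 turned from 0.21 to -0.36 (-0.57 ± 0.08). Upward shifts were seen for Lox, the collagen crosslinking oxidase, which was lowered by 0.54 at day 1 and by 0.12 at day 3 (0.42 ± 0.06), the aggrecanase Adamts5 (0.48 ± 0.06) and Col5a2 (0.29 ± 0.06). Col1a1, the most abundant collagen not called, had an interaction of -0.14 ± 0.08.

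The enzymes that build and sulfate glycosaminoglycans, the family to which Chst7 belongs, shifted downward in 11 of 34 tested genes and upward in 3. Chst7 itself is not on that list. Over all tested genes 13.1% shifted downward and 15.3% upward. The list's median was -0.16, and its counts were 8 and 4 with length corrected for and 17 and 3 without siChst7 replicate 2 at day 3. With length corrected for, 10.6% of all tested genes shifted downward and 16.6% upward. Without that replicate, 2641 of all 14017 tested genes shifted downward and 2939 upward. At day 3 siChst7 lowered 19 of the 34 listed genes and raised 2, against 4 lowered and 4 raised at day 1. Over all tested genes it lowered 21.6% and raised 23.1% at day 3, and lowered 8.72% and raised 8.86% at day 1. Chst11, a chondroitin sulfotransferase, had 93.3, 92.5 and 90.9 CPM against 94.8, 95.9 and 93.6 CPM at day 1, and 70.8, 68.6 and 75.2 CPM against 54.6, 56.9 and 52.8 CPM at day 3. The day 1 difference was 0.04 and not called, and at day 3 every siChst7 library lay well under every control (-0.42 ± 0.06, edgeR adjusted p = 9.92e-05). Ndst1, which starts the sulfation of heparan sulfate, moved from 0.30 to -0.12 (-0.42 ± 0.07), and Chsy1, which polymerises chondroitin, from 0.28 to -0.08 (-0.36 ± 0.06). Chst3, which like Chst7 sulfates chondroitin and was named after its values were seen, shifted by -0.37 ± 0.13 (edgeR adjusted p = 0.0403). Ext2, a heparan sulfate polymerase subunit, was not called (-0.11 ± 0.06). Among 21 proteoglycan core proteins 4 shifted downward and 1 upward, or 2 upward without siChst7 replicate 2 at day 3. Gpc1, a glypican of the cell surface, went from 158, 149 and 148 CPM against 174, 177 and 173 CPM at day 1 to 189, 178 and 198 CPM against 145, 157 and 135 CPM at day 3. Its siChst7 libraries were all above the controls and then all below, an interaction of -0.57 ± 0.07 (edgeR adjusted p = 1.7e-05). The syndecan Sdc4 (-0.32 ± 0.05) and the small proteoglycan Bgn (-0.28 ± 0.07) also shifted downward. The basement membrane proteoglycan Hspg2 was at 0.03 ± 0.07.

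Of the growth factor signalling lists, that of TGF-beta had the highest share of downward shifts, against 13.1% of all tested genes. Of 21 genes of the TGF-beta pathway, which drives the myofibroblast state, 10 shifted downward and 1 upward with a median of -0.18, and 6 and 1 with length corrected for. The upward count was 0 without siChst7 replicate 1 or 3 at day 3 and 2 without replicate 2. Ltbp1, which stores the latent ligand in the matrix, had 171, 163 and 161 CPM against 205, 216 and 216 CPM at day 1 and 211, 198 and 217 CPM against 195, 190 and 195 CPM at day 3. It was raised and then slightly lowered, from 0.36 to -0.11 (-0.48 ± 0.06, edgeR adjusted p = 3.45e-05). The receptor Tgfbr2 (-0.34 ± 0.07) and the signal transducer Smad3 (-0.44 ± 0.08) were near their controls at day 1 and lowered at day 3. Of 19 BMP and ID genes 3 shifted downward and 2 upward, an upward count that was 0 without siControl replicate 2 at day 1 and 1 without any other library of the 12 except siControl replicate 1 or siChst7 replicate 1 at day 1, siControl replicate 1 or siChst7 replicate 2 at day 3. The antagonist Fst moved from 0.75 to 0.39 and the procollagen protease Bmp1 from 0.42 to -0.07. Of 21 Notch and Wnt targets 3 shifted downward, 5 without siChst7 replicate 2 at day 3, including Axin2 (-0.28 ± 0.08, and not called at -0.19 with the replicate block and the length correction together) and Lef1 (-0.93 ± 0.25). Of 25 immediate early genes 5 shifted downward and 2 upward, and 10 downward without siChst7 replicate 2 at day 3. All 14017 genes tested in that fit held 2641 downward shifts. The upward count of the immediate early genes was 1 without siChst7 replicate 2 or siControl replicate 3 at day 1, or siChst7 replicate 1 or siControl replicate 2 at day 3. Egr2 was raised by 0.79 at day 1 and not called at day 3 (-0.90 ± 0.16, edgeR adjusted p = 0.000337).

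Among innate immune genes, those that interferon induces and chemokines were often raised by siChst7, and part of them shifted further upward. Of 32 interferon effector genes 22 were called higher at day 1 and 29 at day 3, and 13 shifted upward with 0 shifted downward. Over all tested genes 8.86% were called higher at day 1 and 23.1% at day 3, and 15.3% shifted upward. The median effect of the effectors went from 0.50 to 0.98 and their median interaction was 0.37. The upward count was 13 with length corrected for, and between 9 and 13 with 1 library left out. Isg15 (chromosome 4, 156199424 to 156200818), the ubiquitin-like protein that interferon induces, had 30.7, 33.2 and 37.3 CPM in siControl and 50.1, 46.8 and 45.2 CPM in siChst7 at day 1. At day 3 it had 28.2, 24.4 and 25.3 CPM against 69.4, 56.1 and 79.1 CPM. The groups were apart at both days and the gap widened from 0.49 to 1.39, an interaction of 0.90 ± 0.14 (edgeR adjusted p = 9.24e-05), which was 0.53 with length corrected for.

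Bst2, or tetherin, which holds budding viruses at the cell surface, had 107, 118 and 132 CPM against 148, 134 and 127 CPM at day 1, and 101, 99.4 and 89.7 CPM against 189, 163 and 203 CPM at day 3. The groups overlapped at day 1 and were apart at day 3 (0.74 ± 0.11, edgeR adjusted p = 6.36e-05, and 0.38 with length corrected for). Ifi27 went from 0.43 to 1.14 (0.70 ± 0.13, and 0.47 with length corrected for). Its span on chromosome 12, 103434189 to 103440245, lies within that of Ifi27l2a, 103433873 to 103443680. The counts of this pair may therefore not be separate. Eif2ak2, the RNA-sensing kinase PKR and the most abundant effector not called, was near its controls at both days, at 0.04 and 0.11. Of 18 receptors and transcription factors upstream 0 shifted upward and 3 downward, Stat3 (-0.38 ± 0.06), Ifnar1 (-0.33 ± 0.06) and Ifngr2 (-0.22 ± 0.06). Over all tested genes 15.3% shifted upward and 13.1% downward. Of these 18 genes siChst7 had raised 6 and lowered 0 at day 1, beside 8.86% and 8.72% of all tested genes. At day 3 it had raised 4 and lowered 6 of the 18, beside 23.1% and 21.6%. Their downward count in the interaction was 6 without replicate 2 of siChst7 at either day. Of 12 complement genes 0 shifted upward and 1 downward, and siChst7 raised 1 and lowered 1 at day 1. The upward count was 1 without siControl replicate 3 at day 1, siControl replicate 1 at day 3 or siChst7 replicate 2 at day 3. The downward count was 0 without siChst7 replicate 2 at day 1, siChst7 replicate 1 at day 3 or siControl replicate 3 of either day.

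Promoter windows are shown for 3 interferon effectors whose effect shifted upward and for Eif2ak2, whose effect did not, because all 4 hold the core of the interferon-stimulated response element. The windows come from RefSeq, GRCm38.p6, and run from 250 bases before to 50 after the annotated start. Capitals mark every match to GAAANNGAA on either strand, with 20 bases on each side unless the window ends, stretches that overlap are joined, and each sequence reads 5′ to 3′ in the direction of its gene.
Isg15, minus strand, chr4:156200856-156200916: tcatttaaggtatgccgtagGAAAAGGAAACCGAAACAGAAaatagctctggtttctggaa
Bst2, minus strand, chr8:71537568-71537622: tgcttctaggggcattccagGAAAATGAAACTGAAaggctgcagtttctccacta
Ifit1, plus strand, chr19:34640760-34640833: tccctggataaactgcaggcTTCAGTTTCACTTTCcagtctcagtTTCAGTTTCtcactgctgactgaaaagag
Eif2ak2, minus strand, chr17:78882523-78882574: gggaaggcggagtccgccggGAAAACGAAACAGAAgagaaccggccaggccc
The core was present in 6 of the 9 shifted effectors with a window in the table and in 9 of the 13 uncalled ones, or 66.7% and 69.2%, against 8.48% of the 10511 tested genes with a window and 9.76% of all 27025 genes in the table. Its presence did not separate shifted from uncalled effectors. Ifit1, an interferon-induced gene that was named here after its values were seen, shifted upward by 0.57 ± 0.15 (edgeR adjusted p = 0.00774).

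Chemokine and cytokine genes shifted upward in 11 of 27 tested cases and downward in 1, beside 15.3% and 13.1% of all tested genes. Their median effect was 0.57 at day 1 and 1.42 at day 3, and their median interaction was 0.33. With length corrected for, 9 and 0 were called, beside 16.6% and 10.6% of all tested genes, and the list's median was 0.28. At day 1 siChst7 had raised 9 and lowered 3 of the 27, beside 8.86% and 8.72% of all tested genes. The downward count was 0 without replicate 3 of siControl or siChst7 at day 1 or siControl replicate 1 or 2 at day 3, and 2 without siChst7 replicate 3 at day 3. Ccl7 (chromosome 11, 82045712 to 82047525), which draws monocytes, had 30.9, 32.7 and 34.2 CPM in siControl and 51.2, 48.4 and 54.5 CPM in siChst7 at day 1. Ccl7 at day 3 had 32.6, 29.6 and 32.2 CPM against 135, 87.3 and 149 CPM. It was level in siControl and rose with time under siChst7, from 0.66 to 1.97 above its controls (1.32 ± 0.17, edgeR adjusted p = 3.12e-05, and 0.96 with length corrected for). Ccl5, a chemokine for T cells, went from 4.24, 4.74 and 3.11 CPM against 5.09, 4.91 and 4.37 CPM to 1.38, 1.10 and 1.17 CPM against 7.84, 4.03 and 6.80 CPM. It fell in siControl and not in siChst7, an interaction of 2.09 ± 0.28 (edgeR adjusted p = 4e-05), or 1.56 with length corrected for. Ccl9 crossed from -0.85 to 1.12, at under 5 CPM in every library. Cxcl12, the most abundant chemokine not called, was lowered at both days, by 0.18 and 0.26.

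Antigen presentation genes were divided. Of 27 genes for GBP and IRG GTPases and MHC class I, 6 shifted upward, 3 without siControl replicate 3 at day 1, and 2 shifted downward. With length corrected for, 4 shifted upward and 3 downward. Over all tested genes 15.3% shifted upward and 13.1% downward, or 16.6% and 10.6% with length corrected for. B2m, the light chain of MHC class I, had 734, 813 and 817 CPM against 818, 862 and 854 CPM at day 1 and 638, 630 and 620 CPM against 1610, 998 and 1850 CPM at day 3. All siChst7 libraries lay above the controls at both days, and the gap at day 3 was far wider (1.14 ± 0.17, edgeR adjusted p = 9.6e-05, and 0.81 with length corrected for). The peptide loading genes Tapbp (-0.37 ± 0.07) and Tap1 (-0.32 ± 0.09) shifted the other way. Markers of macrophages and leukocytes, the cells best known for such genes, stayed low: the 7 of 11 that could be tested summed to 19.2 to 21.7 CPM in siControl and 24.3 to 25.6 CPM in siChst7 at day 1, and to 28.4 to 30.3 CPM and 26.8 to 30.8 CPM at day 3. Of these 7 genes 0 shifted upward and 2 downward, Cd68 and Cd14, both named after their values were seen. The part of such cells in these results was not tested, and the downward count was 1 without any of 7 single libraries. The upward count was 1 without siChst7 replicate 3 at day 1 or siChst7 replicate 2 at day 3.

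**Figure D3:**
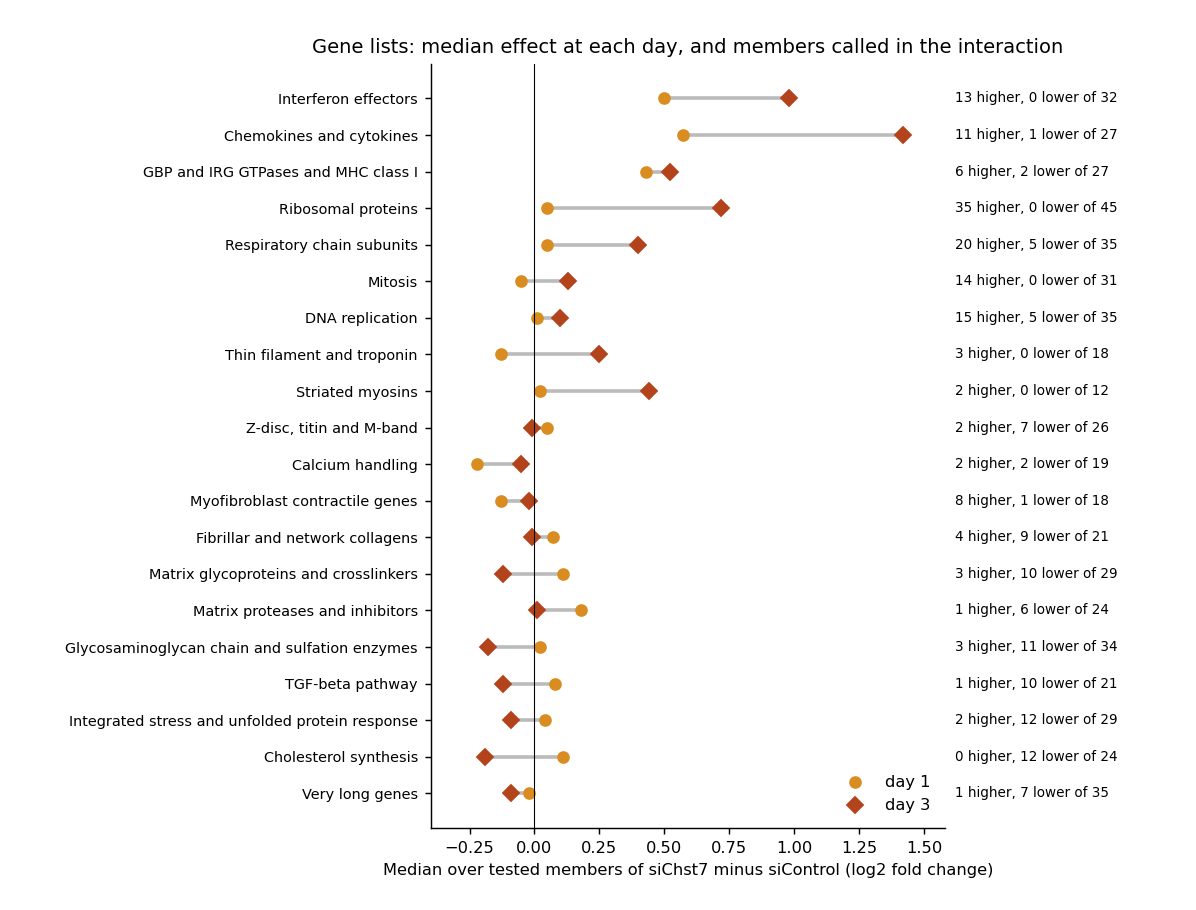
Median log2 fold change of siChst7 against siControl over the tested members of 20 gene lists, with circles for day 1 and diamonds for day 3, and the number of members called in the interaction on the right. Interferon effectors, chemokines, ribosomal proteins and respiratory chain subunits have diamonds to the right of their circles, and the matrix, glycosaminoglycan, TGF-beta and cholesterol lists have them to the left.

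Part of the cell division genes shifted upward, beside 15.3% upward and 13.1% downward over all tested genes. Of 31 mitosis genes 14 shifted upward and 0 downward (median 0.15), 17 and 1 with length corrected for, and of 35 DNA replication genes 15 and 5 (median 0.18), 16 and 4 with length corrected for. Cks2, a partner of the cyclin-dependent kinases, had 47.9, 45.5 and 44.2 CPM against 40.2, 40.9 and 41.0 CPM at day 1 and 37.5, 37.1 and 37.5 CPM against 91.6, 61.6 and 105 CPM at day 3. All siChst7 libraries were below the controls at day 1 and above them at day 3 (1.37 ± 0.16, edgeR adjusted p = 1.44e-05, and 0.95 with length corrected for). Mad2l1, of the spindle checkpoint, went from 0.08 to 0.88 (0.80 ± 0.12, and 0.76 with length corrected for). The checkpoint kinase Bub1, with a summed exon length of 4337 bases, went from -0.01 to 0.61 (0.62 ± 0.10, and 0.72 with length corrected for). Rfc4, a clamp loader subunit, shifted by 0.84 ± 0.15, or 0.67 with length corrected for. Top2a, the most abundant mitosis gene not called, had 749, 745 and 753 CPM against 700, 746 and 713 CPM at day 1 and 534, 511 and 519 CPM against 562, 509 and 537 CPM at day 3, with overlapping groups at both days. Of 27 p53 targets and inhibitors of cyclin-dependent kinases 5 shifted upward, 3 without siChst7 replicate 1 or 3 at day 1, and 6 downward. The inhibitor Cdkn1a moved from 0.15 to -0.16 (-0.31 ± 0.07, edgeR adjusted p = 0.00309).

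Ribosomal protein genes shifted upward in 35 of 45 tested cases and downward in 0. Beside this list and the respiratory chain subunits below, 15.3% of all tested genes shifted upward and 13.1% downward. Rps20 had 356, 347 and 355 CPM in siControl against 354, 348 and 356 CPM in siChst7 at day 1, and 242, 252 and 252 CPM against 531, 369 and 597 CPM at day 3. The groups overlapped at day 1 and were apart at day 3, with an interaction of 1.00 ± 0.14 (edgeR adjusted p = 6.98e-05). Rpl22 shifted by 1.03 ± 0.14 and Rps14 by 0.90 ± 0.13. With length corrected for, Rps20 was at 1.08, Rpl22 at 1.05 and Rps14 at 0.42. Rplp0, the most abundant member not called, was at 0.14 ± 0.08. The list's median difference in single siChst7 libraries was 0.05, 0.04 and 0.05 at day 1 and 0.81, 0.27 and 0.96 at day 3, so replicate 2 moved least. Without that library 40 members shifted upward and 1 downward. Of 35 respiratory chain subunits 20 shifted upward and 5 downward, or 25 and 8 without that library. Cox6c, of cytochrome oxidase, had 131, 142 and 134 CPM against 148, 137 and 144 CPM at day 1 and 155, 158 and 163 CPM against 398, 284 and 464 CPM at day 3 (1.20 ± 0.15, edgeR adjusted p = 2.45e-05, and 0.64 with length corrected for). Replicate 2 was again the lowest of the 3 siChst7 libraries. Atp5b, the catalytic subunit of ATP synthase, was just short of a call (-0.15 ± 0.06, edgeR adjusted p = 0.0607). It was called in 9 of the 10 alternative fits other than those without 1 library. With length corrected for it was at -0.16 (edgeR adjusted p = 0.0141).

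**Figure D4:**
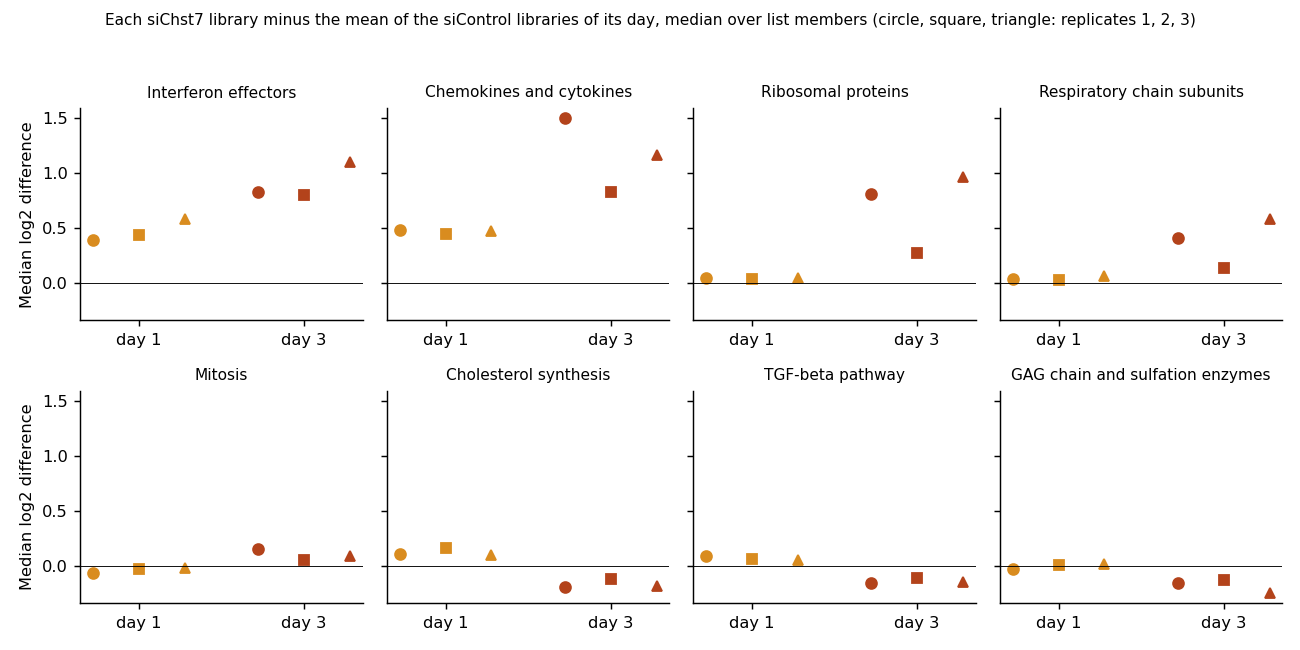
Median over the tested members of 8 gene lists of the log2 difference between each siChst7 library and the mean of the 3 siControl libraries of its day, with circles, squares and triangles for replicates 1, 2 and 3. At day 3 replicate 2 sits at 0.27 for ribosomal proteins against 0.81 and 0.96, while for cholesterol synthesis the 3 libraries lie between -0.19 and -0.12.

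These 2 lists hold many short genes, and the shift followed gene length across the table. The shares over all tested genes were 15.3% upward and 13.1% downward. Of 220 tested genes under 500 bases of exon, 69 shifted upward and 1 downward, with a median of 0.64. From 500 to 1000 bases it was 357 and 11 of 874, and from 8000 bases up it was 43 and 112 of 658, with a median of -0.07. The rank correlation of interaction with length was -0.27 over genes, and the median length was 2009.5 bases in genes shifted upward and 3789 bases in those shifted downward. In single siChst7 libraries the correlation of the difference with length was -0.13, -0.01 and -0.08 at day 1 and -0.31, -0.26 and -0.33 at day 3. With a length trend removed from each library, 2294 genes (16.6%) were called upward and 1466 (10.6%) downward, and 3003 calls were shared in sign with the uncorrected ones. At least 2-fold upward shifts then numbered 123, of which 105 were among the 213 above. Ribosomal protein genes came to 28 upward and 5 downward with a median of 0.30, and respiratory chain subunits to 14 and 8 with a median of 0.12. The part of length in these lists was not tested. Ribosomal RNA and RNAs without a poly-A tail made a list of 13 tested genes with a median length of 487 bases. Of its members siChst7 raised 4 at day 1 and 8 at day 3, beside 8.86% and 23.1% of all tested genes. The list's median effects were 0.61 and 0.83. Of these 13, 2 shifted upward and 0 downward, 6 upward without siChst7 replicate 2 at day 3 and 1 without any of 7 other single libraries, namely siControl replicates 1 and 2 of either day, siChst7 replicates 1 and 3 at day 1 and siChst7 replicate 1 at day 3. The part of these RNAs in the shifts of short genes was not tested. Of 35 very long genes 7 shifted downward and 1 upward, and 5 downward and 7 upward with length corrected for. The upward one was lost without any of 6 single libraries, siChst7 replicates 1 and 3 of either day and siControl replicate 3 of either day.

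**Figure D5:**
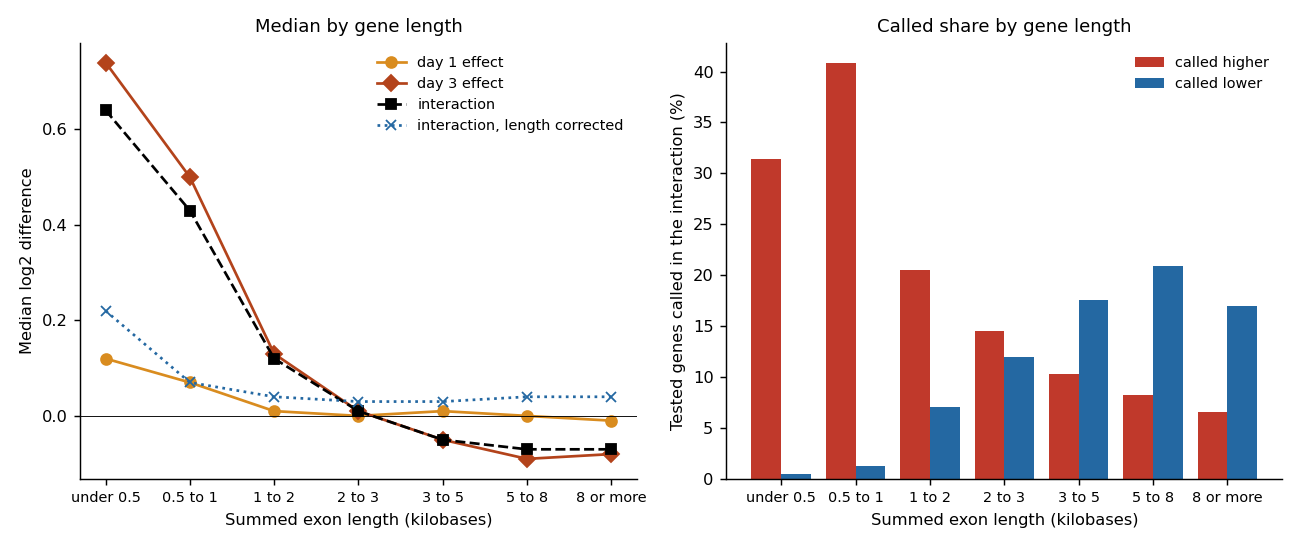
Tested genes in 7 bins of summed exon length, with the median log2 difference at day 1, at day 3 and in the interaction with and without length correction on the left, and the percentage called in the interaction on the right. The day 3 median falls from 0.74 in the shortest bin to -0.08 in the longest, while the day 1 median runs from 0.12 to -0.01.

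Part of the cholesterol synthesis genes turned from raised to lowered. Of 24 genes, 6 were called higher and 0 lower at day 1, 3 higher and 13 lower at day 3, and 12 shifted downward with 0 shifted upward. Of all tested genes 8.86% were called higher and 8.72% lower at day 1, and 23.1% and 21.6% at day 3. In the interaction 13.1% of all tested genes shifted downward and 15.3% upward. The list's median interaction was -0.27. With length corrected for it was -0.20, with 10 downward calls, beside 10.6% of all tested genes. The downward count was 7 without siControl replicate 3 or siChst7 replicate 2 at day 1, and 3 shifted upward without siChst7 replicate 2 at day 3. Hmgcs1, which makes the precursor of mevalonate, had 88.6, 96.0 and 84.8 CPM in siControl against 98.3, 111 and 106 CPM in siChst7 at day 1, and 69.0, 71.6 and 68.0 CPM against 55.5, 59.3 and 55.6 CPM at day 3. Each siChst7 library lay above every control at day 1 and below every control at day 3 (-0.52 ± 0.08, edgeR adjusted p = 0.000166). The sterol demethylase Cyp51 went from 0.19 to -0.24 (-0.43 ± 0.07), and Srebf2, the transcription factor that drives the pathway, from 0.09 to -0.32 (-0.41 ± 0.07).

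Stress response genes of the endoplasmic reticulum and amino acid supply shifted downward in 12 of 29 cases and upward in 2, or 4 without siChst7 replicate 2 at day 3. Their median was -0.16, which length correction left at -0.16. Beside this list and those that follow, 13.1% of all tested genes shifted downward and 15.3% upward. Without siChst7 replicate 2 at day 3 it was 2641 and 2939 of all 14017 tested genes. Calr, a calcium-binding chaperone, had 1080, 1050 and 1040 CPM against 1110, 1120 and 1100 CPM at day 1 and 946, 925 and 960 CPM against 721, 789 and 705 CPM at day 3 (-0.42 ± 0.06, edgeR adjusted p = 3.87e-05). The groups lay close at day 1 and far apart at day 3. The serine enzyme Shmt2 turned from 0.24 to -0.18 and Vldlr from 0.22 to -0.31. Hsp90b1, the most abundant uncalled member, had an interaction of 0.07 ± 0.07. Glycolysis and hypoxia genes went both ways, 7 upward and 8 downward of 26. The downward count was 13 without siChst7 replicate 2 at day 3 and 5 without siControl replicate 3 of either day, and the upward count was 4 without siChst7 replicate 3 at day 3. Bnip3, a mitophagy receptor, crossed from -0.35 to 0.59 (0.94 ± 0.14), while Ndrg1 turned from 0.18 to -0.40 (-0.58 ± 0.06). Of 22 fatty acid oxidation genes 4 shifted upward and 5 downward, and the upward count was 2 without siControl replicate 2 at day 1 or siChst7 replicate 1 or 3 at day 3, and 7 without siChst7 replicate 2 at day 3. Acadm, the medium-chain acyl-CoA dehydrogenase, had 70.7, 76.9 and 75.1 CPM against 40.7, 35.0 and 38.6 CPM at day 1 and 47.4, 43.8 and 47.2 CPM against 36.7, 31.0 and 35.9 CPM at day 3. It was under its controls at both days, with a gap that narrowed from -0.96 to -0.42 (0.54 ± 0.09, edgeR adjusted p = 0.000233). Of 25 antioxidant genes 6 shifted upward, 10 without siChst7 replicate 2 at day 3, and 4 downward, with Prdx1 at 0.84 ± 0.15 and catalase, Cat, at -0.28 ± 0.06.

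Markers of the labelled cells were present in every library. The 8 tested fibroblast markers summed to 3380 to 3660 CPM in siControl and 3780 to 3810 CPM in siChst7 at day 1, and to 4080 to 4530 CPM and 3910 to 4090 CPM at day 3. The 9 tested cardiac markers went from 108 to 113 CPM and 116 to 144 CPM at day 1 to 824 to 885 CPM and 992 to 1250 CPM at day 3. Of these, Nppa and Myl7 shifted upward, and Myl7 was the only one when siControl replicate 2 at day 1 was left out. Smooth muscle markers, summed over 10 genes, lay at 2280 to 2380 CPM in siControl against 1770 to 1870 CPM in siChst7 at day 1 and at 3210 to 3330 CPM against 3540 to 4300 CPM at day 3, so the sum crossed as Acta2 did. Endothelial, epithelial, neural and adipocyte markers had 4 or 5 tested members each and summed to at most 43.4 CPM in any library.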

How the data were processed

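RNA was measured by poly-A sequencing. The table the authors deposited holds raw counts of reads for 24514 genes in 18 libraries, as whole numbers. HISAT2, Subread, featureCounts and DESeq2 with mm10 are named in the submitters' processing notes. What versions, strand setting, annotation release and treatment of multimapping reads were used is not given in the sources used here, so counts of near-identical or overlapping genes are uncertain. All 18 count columns were matched to samples by library name. Symbols matched RefSeq GRCm38.p6 directly for 23591 genes (96.2%), which gave coordinates. Gene lengths are those of the deposited table.

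The count test was that of edgeR 4.0.16 under R 4.3.3. After filterByExpr 13802 genes were left, scaled by TMM. All 18 libraries entered 1 quasi-likelihood fit of 6 groups with no covariate and 12 residual degrees of freedom. Tests were two-sided, p-values were Benjamini-Hochberg adjusted over all tested genes, and genes below 0.05 were called. The SE is the absolute log2 value over the square root of F, and CPM uses TMM-scaled totals. The fit was tested on simulated data. The length correction removes from each library a lowess trend (span 0.3) of log2 ratio to the mean library over log2 gene length. No set test was run, and lists are described by counts and medians.

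The comparison, the 45 gene lists and the naming rule were chosen with earlier results of these data known. Named genes were Chst7 and the 3 factors; the 8 largest shifts each way among called genes of at least 5 CPM whose day 3 differences did not overlap those of day 1, without predicted genes, clones, pseudogenes or dates; in each list with at least 3 called members, the 3 with the smallest p and the most abundant uncalled one; and the 3 largest in each class of day 1 and day 3 effects. Of these 145 genes, those that add to the description are given. Alternatives were DESeq2 1.42.0, 3 other scalings, 2 filters, the 12 libraries alone, the replicate number as a block, the length correction, both of these, and each library left out. A few genes the rule names are not reported here.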

Additional observations from a re-analysis of the deposited data

Results flagged for a closer look

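The effect of siChst7 differed between day 1 and day 3 in 3926 genes by the interaction term itself. Among genes of at least 5 CPM whose effects were called with opposite signs at the 2 days, these 3 had the largest shifts, all from lowered to raised: Wbp5 at 1.49, Actg2 at 1.46 and Myl4 at 1.18 (log2). In siControl over the same days Wbp5 changed by 0.24, Actg2 by 0.09 and Myl4 by 4.27, so that the first pair was nearly level in control cells while Myl4 was strongly induced in both conditions.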

How the results depend on the processing

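The number of genes called in the interaction was 4342 with DESeq2, 4093 with DESeq2-style size factors, 3962 with upper quartile scaling, 3987 with library totals, 4289 without a filter, 4193 with a stricter filter and 3744 from the 12 libraries alone. It was 3760 with the length correction. Each count lay within 1.5 times that of the fit reported, 3926. The share shifted upward was 53.8% there, between 42.8% and 50.5% in the first 7 of these fits and 61% with the length correction. Without a filter 1834 genes shifted upward and 2455 downward. With 1 library left out the count ran from 3057, without siChst7 replicate 1 at day 3, to 5580, without replicate 2 of that group. Same-numbered libraries did not deviate together (18 correlations of -0.04 to 0.07), so no pairing was used, and a replicate block called 3717 genes, 3668 of them shared with the fit reported, or 3621 together with the length correction. Of 31 named genes not called, 7 gained a call with the length correction, among them Atp5b, and 5 did so with DESeq2. Of 114 called named genes 105 stayed called in every fit. Tnnc1, Cdkn2a and Aldh1l1 lost their call with the length correction, Gata6 (-0.27) and Axin2 (-0.19) with that and the replicate block, Tnnc1, Tpm4 and Aldh1l1 from the 12 libraries alone, and Wif1, Tnnc1, Tpm4, Aldh1l1, Zfp40 and Afap1l2 lost it in some fits without 1 library.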

Other observations

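Several gene families taken by symbol, after the values were seen and so described without a test, were not among the lists above. Over all tested genes 15.3% shifted upward and 13.1% downward, or 16.6% and 10.6% with length corrected for. Of 15 small nucleolar RNA host genes (Snhg) 10 shifted upward and 0 downward, with a median of 0.76, and 7 and 0 with length corrected for. Of 22 Sm and Lsm genes, whose proteins form the core of splicing particles, 14 shifted upward and 1 downward (12 and 6 with length corrected for). Of 78 mitochondrial ribosomal protein genes 34 and 3 did so, which became 20 and 13. Zinc finger genes (Zfp), with a median length of 3553 bases, shifted upward in 80 of 339 cases and downward in 24, and in 95 and 10 with length corrected for. Of 36 protocadherin genes, adhesion molecules of the cadherin family, 0 shifted upward and 5 downward (0 and 4 with length corrected for). Both downward counts were near the downward shares of all tested genes.

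Malat1, a long nuclear RNA, shifted upward by 0.81 ± 0.13 (edgeR adjusted p = 0.000124) at a summed exon length of 6982 bases, from -0.22 at day 1 to 0.59 at day 3.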
